A study of Mus musculus with 6 samples.

Results

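The VEGF and angiopoietin pathway genes described here are 9 of the 33000 genes in the count table, taken as the rows whose symbol was Vegfa, Angpt1, Angpt2, Flt1, Kdr, Nrp1, Tek, Tie1 or Eng. Each symbol matched 1 row. The set holds 3 ligands (Vegfa, Angpt1 and Angpt2) and 6 receptors or co-receptors. TruSeq mRNA libraries, which cover transcripts along their length, were generated from frontal cortex, with 3 mice homozygous for the GFAP-IL6 transgene and 3 wild-type (WT) controls. All mice were 3 months old, and the strain of both groups was C57BL/6. The GFAP-IL6 mouse is a model of neuroinflammation in which the Gfap promoter drives expression of IL6 in astrocytes. Each library came from 1 mouse, and the sources used here do not give the sex or litter of the mice. The question addressed is whether the levels of these ligands and receptors differed between the genotypes.

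VEGF-A is the main growth factor for blood vessel endothelial cells, and in the brain it is made largely by glia and neurons, while most of its receptors sit on endothelial cells. It signals through VEGFR2, encoded by Kdr. VEGFR1, encoded by Flt1, binds VEGF-A more tightly but signals weakly, and its secreted form traps the ligand. Neuropilin 1, encoded by Nrp1, is a co-receptor for VEGF-A and for class 3 semaphorins. Angiopoietin 1 activates the endothelial receptor TIE2, encoded by Tek, and keeps vessels quiescent, whereas angiopoietin 2 can block that signal and loosens vessels. TIE1 has no well established ligand of its own and modulates TIE2, and endoglin (Eng) is an endothelial co-receptor for BMP9 and other TGF-beta family ligands.

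Expression of 3 of the 9 genes was higher in GFAP-IL6 than in WT cortex, namely the receptor genes Flt1 and Eng and the ligand gene Vegfa. Flt1 rose 1.69-fold, Eng 1.68-fold and Vegfa 1.29-fold, at an adjusted p under 0.05 by the quasi-likelihood test of edgeR. All 9 genes were among the 15341 tested, of which 2.65% were called higher. No member was called lower by edgeR, DESeq2 or limma-voom, and 0 were lower at an unadjusted p under 0.05. Kdr, the gene of the main signalling receptor for VEGF-A, did not pass the test, with a 95% interval for the fold from 0.902 to 1.43. These values are differences of RNA in bulk tissue, where fewer or more cells of a type and less or more RNA per cell cannot be told apart. Of 11 endothelial marker genes, 6 were also called higher in GFAP-IL6, as detailed beside the receptors.

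Promoter sequences are shown for the 3 genes that passed the test and for Kdr, so that the start regions of both VEGF receptor genes can be set side by side. Of the 9 genes, 7 matched a RefSeq promoter (GRCm38.p6), which spans 250 bases before and 50 bases after a transcription start, and Angpt1 and Angpt2 did not. The promoters are written 5′ to 3′ on the strand of the gene, in lower case, with matches to AGGAAG or its reverse complement CTTCCT, a core site of ETS factors, in capitals. The windows are chr5:147725962-147726261 (minus strand) for Flt1, chr5:75978406-75978705 (minus strand) for Kdr, chr2:32646345-32646644 (plus strand) for Eng and chr17:46032328-46032627 (minus strand) for the upstream of 2 listed starts of Vegfa.
Flt1: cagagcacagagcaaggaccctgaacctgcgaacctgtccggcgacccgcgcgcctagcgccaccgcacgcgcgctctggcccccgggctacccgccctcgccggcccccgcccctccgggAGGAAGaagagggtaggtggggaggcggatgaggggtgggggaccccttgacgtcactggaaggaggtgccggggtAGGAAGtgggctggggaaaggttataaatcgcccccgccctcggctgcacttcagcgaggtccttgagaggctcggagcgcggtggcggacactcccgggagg
Kdr: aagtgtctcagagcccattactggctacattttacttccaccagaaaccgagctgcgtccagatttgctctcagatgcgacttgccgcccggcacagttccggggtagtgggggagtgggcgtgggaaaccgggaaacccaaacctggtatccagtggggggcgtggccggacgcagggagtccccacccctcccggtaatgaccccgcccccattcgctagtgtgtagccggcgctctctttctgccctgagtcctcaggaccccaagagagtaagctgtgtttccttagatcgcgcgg
Eng: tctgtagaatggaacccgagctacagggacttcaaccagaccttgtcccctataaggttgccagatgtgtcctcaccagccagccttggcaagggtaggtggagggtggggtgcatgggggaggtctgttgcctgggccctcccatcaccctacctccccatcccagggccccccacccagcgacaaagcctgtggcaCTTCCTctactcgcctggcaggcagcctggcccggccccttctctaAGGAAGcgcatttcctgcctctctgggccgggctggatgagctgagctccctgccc
Vegfa: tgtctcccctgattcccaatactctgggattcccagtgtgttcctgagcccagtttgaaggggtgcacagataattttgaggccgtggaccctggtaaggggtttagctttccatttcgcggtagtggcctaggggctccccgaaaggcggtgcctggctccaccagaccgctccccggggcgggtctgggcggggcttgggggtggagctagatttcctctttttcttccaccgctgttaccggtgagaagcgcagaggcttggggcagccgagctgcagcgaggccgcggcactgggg

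The Flt1 promoter held 2 AGGAAG matches, 53 and 129 bases before the start, and the Eng promoter held 2, at 6 and 52 bases before the start. No AGGAAG match was found in the windows of Kdr and Vegfa shown above or in that of Tek. The shorter core GGAA or its reverse complement TTCC does occur in each of these windows. Tie1 held 2 AGGAAG matches and Nrp1 held 1. Of all 32851 RefSeq promoters of this length, 35.4% held AGGAAG on either strand. GC content was 70.7% for Flt1, 60.7% for Kdr, 63.3% for Eng and 62.0% for this Vegfa window. The STAT motif TTCNNNGAA, the target of the transcription factors that act downstream of IL6, had 0 matches on either strand in the promoters of the 7 genes and was present in 8.3% of all promoters. The core hypoxia motif ACGTG had 1 match, in the promoter of the second listed start of Vegfa (agtgcgtgccCACGTcagagagcaa, chr17:46025360-46025384, minus strand, match in capitals), and was present in 19.6% of all promoters. The second listed start of Vegfa lies inside the gene (chr17:46016993-46032369, minus strand), and the upstream Vegfa window held 0 hypoxia matches. These letters describe the windows only, and STAT and hypoxia sites farther from a start were not searched. The AGGAAG motif was added after the expression values were known, and none of the motifs overlapped another in these windows.

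The labels were checked first with Il6 and Gfap. The WT libraries held 0, 2 and 0 counts of Il6 and the GFAP-IL6 libraries 12, 10 and 24, with an adjusted p of 0.00208. Gfap, the astrocyte filament gene whose promoter drives the transgene, rose from 94.5 ± 24.8 CPM (SD, n = 3) to 678 ± 178.5 CPM (SD, n = 3), with a log2 fold change of 2.84 and an adjusted p of 5.49e-06. CPM are counts scaled to a common library total after TMM adjustment. Total counts ranged from 7559524 to 11072008 in GFAP-IL6 and from 11591066 to 16877001 in WT, so that each GFAP-IL6 library was shallower than each WT library. A count of 3 corresponded to between 0.178 and 0.397 CPM. WT replicate 3 stood apart in choroid plexus markers, with 8766 counts of Ttr against 15 to 358 in the other libraries. WT replicate 2 stood apart in striatal markers, with a summed level of 399.9 CPM against 179.2 to 226.7 CPM. Of all genes tested, 407 were called higher and 32 lower.

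Levels were compared between genes in TPM, which divides by gene length. Vegfa was the most abundant member in both groups, with 57.7 ± 3.98 TPM (SD, n = 3) in WT and 78.0 ± 6.63 TPM in GFAP-IL6. In WT it was followed by Nrp1 (16.1 TPM), Flt1 (12.9), Eng (11.1), Tek (7.97), Tie1 (5.28), Kdr (5.07), Angpt1 (3.58) and Angpt2 (1.03). Among these neighbours the libraries of Flt1 and Eng, of Tie1 and Kdr and of Kdr and Angpt1 overlapped in level, and the other neighbours did not. In GFAP-IL6 the order was Vegfa, Flt1 (22.8 TPM), Nrp1 (20.7), Eng (19.5), Tek (12.2), Tie1 (8.07), Kdr (6.04), Angpt1 (5.02) and Angpt2 (0.667). The order thus differed only in the places of Flt1 and Nrp1, whose libraries overlapped in GFAP-IL6, and the ranges of Nrp1 and Eng and of Kdr and Angpt1 overlapped as well.

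**Figure D1:**
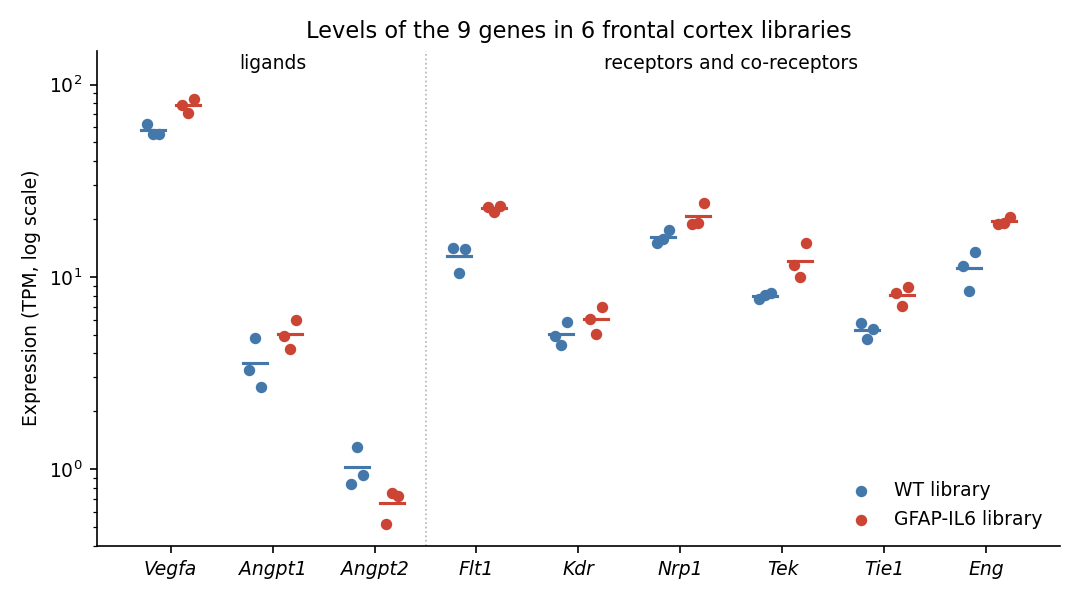
Level of each of the 9 genes in TPM (log axis) in every library, with WT in blue, GFAP-IL6 in red and a short line at the mean of the 3 libraries of a group; ligands stand left of the dotted line. Vegfa was the most abundant gene and Angpt2 the least abundant in both groups, and the groups overlap for Angpt1 and Kdr but not for the other 7 genes.

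Of the ligand genes, Vegfa (ENSMUSG00000023951.14, GRCm38 chr17:46016993-46032369, minus strand) was at 77.1, 72.95 and 70.2 CPM in WT replicates 1, 2 and 3 and at 94.3, 86.6 and 102.4 CPM in GFAP-IL6 replicates 1, 2 and 3. Each GFAP-IL6 library was above each WT library. The mean rose from 73.4 ± 3.47 to 94.4 ± 7.87 CPM (SD, n = 3 each), a log2 difference of 0.37 ± 0.09 (SE), and the adjusted p was 0.0432. This call lies close to the threshold and was lost without WT replicate 3 or without any 1 of the GFAP-IL6 replicates, with log2 fold changes from 0.31 to 0.42 among the fits that left out 1 library. A gene count does not separate the splice forms of Vegfa, which differ in how tightly they bind the matrix.

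Angpt1 (ENSMUSG00000022309.8, chr15:42424723-42676977, minus strand), the activating TIE2 ligand, was at 4.88, 7.58 and 4.08 CPM in WT and at 7.08, 6.21 and 8.71 CPM in GFAP-IL6. The groups overlapped, since the level in WT replicate 2 was above that of GFAP-IL6 replicates 1 and 2. The log2 fold change of Angpt1 was 0.40 with a 95% interval from −0.10 to 0.91 and an adjusted p of 0.346. In the annotation, 14.2% of its exon bases overlap Gm17473 on the opposite strand. That gene had 49 counts over all libraries, and the strand setting of the counting is not given in the sources used here.

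Angpt2 (ENSMUSG00000031465.6, chr8:18690263-18741562, minus strand), the ligand that can oppose Angpt1 at TIE2, was covered by 12, 29 and 19 counts in the WT libraries and by 7, 7 and 8 in those of GFAP-IL6. The corresponding levels were 1.045, 1.73 and 1.193 CPM in WT and 0.628, 0.924 and 0.893 CPM in GFAP-IL6. Angpt2 was the only member whose GFAP-IL6 libraries were all below the WT libraries, and non-overlap in this direction was seen for 12.7% of all genes tested. The log2 fold change was −0.74 with a 95% interval from −1.52 to 0.03 and an adjusted p of 0.263, so that Angpt2 did not pass the test at this depth. Without WT replicate 2, which had the highest level of Angpt2, the log2 fold change was −0.50. Angpt2 was above the level asked for by the low-count filter, 0.882 CPM, in 3 WT libraries and 2 GFAP-IL6 libraries.

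Of the receptor genes, Flt1 (ENSMUSG00000029648.11, chr5:147561604-147726011, minus strand) was at 54.4, 42.9 and 55.3 CPM in WT and at 86.3, 82.0 and 88.4 CPM in GFAP-IL6. The lowest GFAP-IL6 library was above the highest WT library by more than the whole spread of the WT group. The mean rose from 50.9 ± 6.91 CPM (SD, n = 3) to 85.6 ± 3.27 CPM (SD, n = 3), with a log2 fold change of 0.75 ± 0.10 (SE) and an adjusted p of 0.000925. Flt1 was called in each of the 15 alternative fits, including the 6 that left out 1 library. The membrane and secreted forms of VEGFR1 come from the same gene, and gene counts do not separate them.

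Kdr (ENSMUSG00000062960.8, chr5:75932827-75978458, minus strand) was at 10.3, 9.72 and 12.4 CPM in WT and at 12.2, 10.3 and 14.3 CPM in GFAP-IL6. The groups overlapped. The log2 fold change was 0.18 with a 95% interval from −0.15 to 0.52 and an adjusted p of 0.515. Nrp1 (ENSMUSG00000025810.8, chr8:128358604-128503363, plus strand), the VEGF-A co-receptor gene that is expressed in neurons as well as vessels, was at 31.0, 34.7 and 37.2 CPM in WT and at 37.6, 39.1 and 49.3 CPM in GFAP-IL6. The lowest GFAP-IL6 library was just above the highest WT library. The log2 fold change of Nrp1 was 0.29 with a 95% interval from 0.04 to 0.54, an unadjusted p of 0.0272 and an adjusted p of 0.191.

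Tek (ENSMUSG00000006386.13, chr4:94739289-94874976, plus strand), the TIE2 gene, was at 12.6, 14.0 and 13.9 CPM in WT and at 18.4, 16.2 and 24.2 CPM in GFAP-IL6. Tie1 (ENSMUSG00000033191.12, chr4:118471191-118490061, minus strand) was at 9.15, 7.99 and 8.79 CPM in WT and at 12.7, 11.1 and 14.0 CPM in GFAP-IL6. Both genes had each GFAP-IL6 library above each WT library but were just short of the threshold. The log2 fold change of Tek was 0.54 with a 95% interval from 0.23 to 0.85 and an adjusted p of 0.0700. That of Tie1 was 0.55 with a 95% interval from 0.25 to 0.85 and an adjusted p of 0.0547. Tie1 was past the threshold without WT replicate 1, at a log2 fold change of 0.59.

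Eng (ENSMUSG00000026814.14, chr2:32646595-32682669, plus strand) was at 14.2, 11.2 and 17.4 CPM in WT and at 22.95, 23.5 and 25.3 CPM in GFAP-IL6. The groups were apart, and the WT libraries were the more spread. The mean rose from 14.3 ± 3.09 CPM (SD, n = 3) to 23.9 ± 1.25 CPM (SD, n = 3), with a log2 fold change of 0.75 ± 0.15 (SE) and an adjusted p of 0.0138. The call was lost without GFAP-IL6 replicate 2 (log2 fold change 0.76) or 3 (0.71), and kept without each of the other libraries. Fpgs on the opposite strand overlaps 1.51% of the exon bases of Eng.

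By role, 2 of 6 receptor genes and 1 of 3 ligand genes were called higher, against 2.65% of all genes tested. The 6 receptor genes all had a log2 fold change above 0, from 0.18 to 0.75 with a median of 0.54, and the 3 ligand genes ranged from −0.74 to 0.40 with a median of 0.37, while the median of all genes tested was −0.0038. At an unadjusted p under 0.05, 6 of the 9 members were higher and 0 were lower, against 11.1% and 9.37% of all genes tested. The 6 were Flt1, Eng, Vegfa, Tie1, Tek and Nrp1, and the same 6 genes had groups that did not overlap with GFAP-IL6 higher, against 13.8% of all genes. The number of members called at an adjusted p under 0.05 was 1 without GFAP-IL6 replicate 2 or without GFAP-IL6 replicate 3. Those 2 fits called 282 of 15596 and 187 of 15551 genes tested.

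The mean log2 CPM of the 6 receptor genes minus that of the 3 ligand genes was 1.25, 0.72 and 1.48 in WT and 1.71, 1.52 and 1.62 in GFAP-IL6. This difference was larger in each GFAP-IL6 library than in each WT library, and it is a description of genes chosen with results known, with no test. The mean level of receptor genes was 4.14 in WT and 4.65 in GFAP-IL6, and that of ligand genes was 2.99 and 3.03. The fitted log2 fold changes averaged 0.50 higher over receptors than over ligands, and 0.25 higher without WT replicate 2, in which both Angpt1 and Angpt2 were highest among the WT libraries. Angpt2 was the only ligand gene below 0, at −0.74, against 0.37 for Vegfa and 0.40 for Angpt1, and it lowered the ligand mean. It did not pass the test and had 7, 7 and 8 counts in the GFAP-IL6 libraries. The difference without Angpt2 was not computed. With Vegfa as the only ligand, the receptor mean minus Vegfa was −2.14, −2.17 and −1.85 in WT and −1.95, −1.93 and −1.85 in GFAP-IL6. These ranges overlapped, so that the groups were not apart when Vegfa stood alone for the ligands.

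Ratios of counts within a library do not depend on the scaling between libraries, and 4 pairs of genes were compared in this way. The ratio of Flt1 to Kdr was 5.29, 4.41 and 4.45 in WT and 7.08, 7.96 and 6.19 in GFAP-IL6. The ratio of Angpt2 to Angpt1 was 0.214, 0.228 and 0.292 in WT and 0.0886, 0.149 and 0.103 in GFAP-IL6. This second ratio rests on 7, 7 and 8 counts of Angpt2 in the GFAP-IL6 libraries. Neither Angpt2 nor Angpt1 passed the edgeR test by itself (adjusted p 0.263 and 0.346). For both pairs the groups did not overlap. The mean log2 ratio differed by 0.58 for Flt1 to Kdr and by −1.13 for Angpt2 to Angpt1. The exact permutation p (two-sided) was 0.1 for each of them, which is the lower limit for groups of 3, and 0.2 after Benjamini-Hochberg adjustment over the 4 pairs.

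The other pairs overlapped between the groups. The ratio of Tie1 to Tek was between 0.570 and 0.724 in WT and between 0.576 and 0.693 in GFAP-IL6, and the log2 ratio differed by 0.02 (exact permutation p 0.9, two-sided). That of Vegfa to Kdr was between 5.65 and 7.50 in WT and between 7.16 and 8.41 in GFAP-IL6, and the log2 ratio differed by 0.18 (exact permutation p 0.4, or 0.533 after adjustment). In this design no pair could reach 0.05. Counts of different genes in 1 library depend on gene length, so that the ratios describe differences between libraries and not relative abundance.

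**Figure D2:**
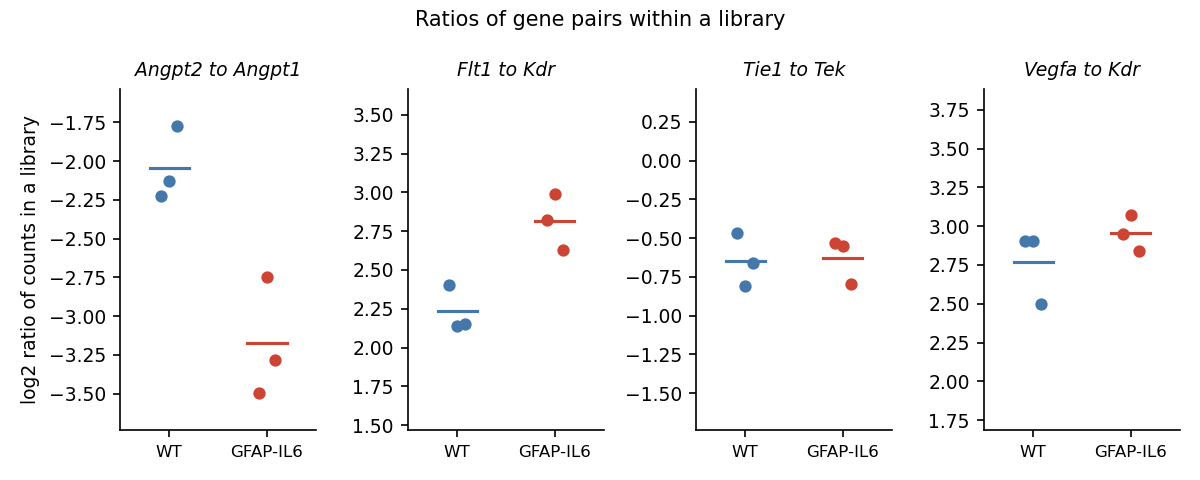
log2 ratio of counts within each library for 4 gene pairs, with WT in blue, GFAP-IL6 in red and a line at the mean of 3 libraries; the 4 vertical axes span equal ranges around different centres. The groups separate for Angpt2 to Angpt1, which is lower in GFAP-IL6, and for Flt1 to Kdr, which is higher, and overlap for the other pairs. Angpt2 had only 7, 7 and 8 counts in the GFAP-IL6 libraries.

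Endothelial markers were measured beside the receptors. Of 11 endothelial marker genes, all of which were tested, 6 were called higher in GFAP-IL6 and 0 lower, with a median log2 fold change of 0.49. The 6 were the junction and surface genes Pecam1 (0.60), Cldn5 (0.93), Esam (0.69) and Ly6c1 (0.98) and the transporter genes Slco1a4 (0.40) and Abcb1a (0.49). The other 5 did not pass, with log2 fold changes of 0.50 for Cdh5, 0.34 for Erg, 0.25 for Egfl7, 0.06 for Emcn and −0.13 for Itm2a, whose mean was 56.5 CPM in WT and 51.8 CPM in GFAP-IL6. The summed level over the 11 markers was 240.4 to 255.1 CPM in WT and 316.1 to 350 CPM in GFAP-IL6. Without GFAP-IL6 replicate 1, 3 of the 11 were called, and without replicate 2 or 3 of that group, 4 were called. Of 12 mural cell markers tested, 2 were called higher, Rgs5 and Notch3, and 0 were called without WT replicate 3 or without any 1 of the GFAP-IL6 replicates. The summed mural level was 216.5 to 257.3 CPM in WT and 291.4 to 331.1 CPM in GFAP-IL6. The part of a change in cell number in the values of the members was not tested.

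A scaling of the libraries to the summed counts of the 11 endothelial markers gave the members relative to that panel. The panel shift was 0.44 on the log2 scale, and the median of all genes tested was then −0.44. On this scale 1.93% of all genes tested were called higher and 64.5% lower, so that a call of lower is read against that share. Flt1 was again called higher, with a log2 fold change of 0.31 and an adjusted p of 0.0247. Angpt2 was at −1.17 with an adjusted p of 0.0103, and it had passed the low-count filter through the WT libraries, in which it was higher. Eng was at 0.31 with an adjusted p of 0.0705, Tie1 at 0.12 and Tek at 0.10. Vegfa (−0.07), Angpt1 (−0.03), Nrp1 (−0.15) and Kdr (−0.25) lay below 0 under this scaling and did not pass the test. Vegfa and Nrp1 are also expressed by other cell types, for which this scale is not specific.

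**Figure D3:**
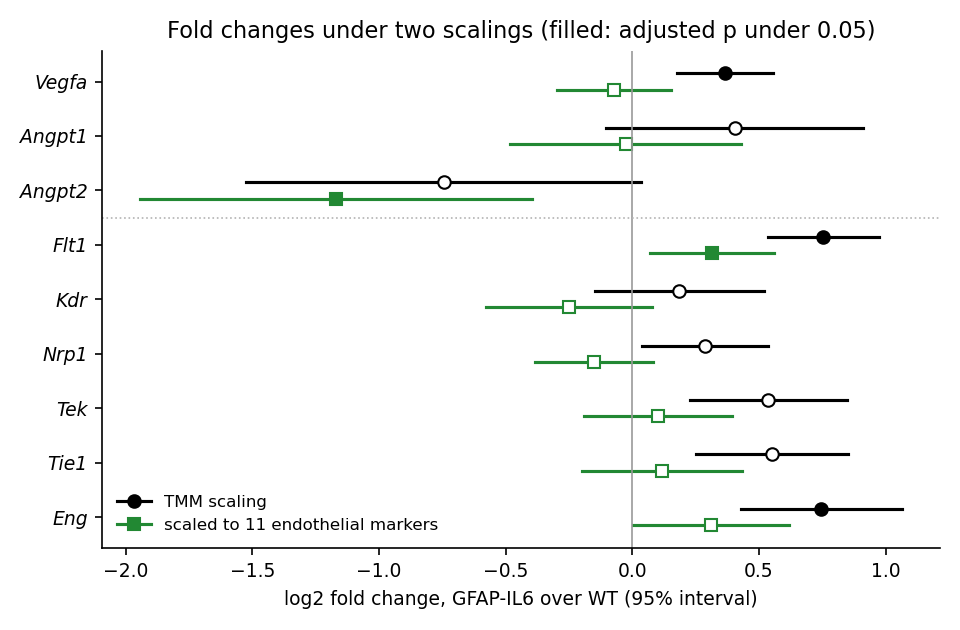
log2 fold change of GFAP-IL6 over WT with its 95% interval for each gene, under TMM scaling (black circles) and relative to 11 endothelial markers (green squares); filled symbols passed an adjusted p of 0.05 and ligands stand above the dotted line. Flt1 is filled under both scalings, Vegfa and Eng under TMM scaling only, and Angpt2 under endothelial scaling only.

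Markers of the other cell types in cortex were summed in the same way. Microglial markers were called higher for 7 of 8 genes, with a summed level of 380.2 to 468.6 CPM in WT and 768.4 to 881 CPM in GFAP-IL6. None of 9 astrocyte markers (Gfap was not among them), 10 neuron markers, 7 oligodendrocyte lineage markers, 7 meningeal markers, 5 blood markers, 5 choroid plexus markers or 8 striatal markers was called by edgeR, where the numbers at an unadjusted p under 0.05 were 3, 3, 1, 0, 0, 4 and 1. limma-voom called none of them, and DESeq2 called 2 astrocyte markers higher and 1 striatal marker lower. Without WT replicate 2, 1 astrocyte, 1 striatal and 1 choroid plexus marker were called, and without WT replicate 1, 2 oligodendrocyte lineage markers, 1 striatal and 1 choroid plexus marker. Leukocyte markers summed to at most 3.01 CPM in any library and none of the 11 passed the filter on low counts. The part of the microglial difference in the values of the members was not tested.

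The rest of the pathway was described from 8 further lists. Of 6 other VEGF family genes tested, 0 were called by edgeR, DESeq2 or limma-voom and 1 had an unadjusted p under 0.05 by edgeR. Vegfb, the most abundant of them at 103.5 TPM in WT and 101.9 TPM in GFAP-IL6, had a log2 fold change of −0.09 and an adjusted p of 0.668. The gene under an unadjusted p of 0.05 was Flt4, the receptor for VEGF-C, singled out after its values were seen, with a log2 fold change of 0.87 and an adjusted p of 0.0791. Thus none of the other ligand or receptor genes of the VEGF family passed the test in the main fit. Without the low-count filter 1 of them was called higher. Under the endothelial scaling 3 were called lower, where 64.5% of all genes tested were called lower.

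Of 4 tested partners of the angiopoietin receptors, 1 was called higher, Ptprb, the phosphatase VE-PTP that removes phosphate from TIE2. Ptprb rose from 42.3 ± 7.59 to 60.4 ± 4.88 CPM (SD, n = 3 each), a log2 fold change of 0.52 with an adjusted p of 0.0403, and the call was lost without any 1 of the GFAP-IL6 replicates. It was also lost after each library was thinned to the lowest total (adjusted p 0.0542) and under the endothelial scaling, where the log2 fold change was 0.08. Angpt4, the third angiopoietin gene, had 2, 3 and 2 counts in WT and 0 in each GFAP-IL6 library and was not tested. Of 10 tested genes of the endoglin pathway, 1 was called higher, Acvrl1, which encodes the receptor ALK1 that works with endoglin. Acvrl1 was at 9.79 ± 0.318 CPM in WT and 15.7 ± 2.23 CPM in GFAP-IL6 (SD, n = 3 each). The log2 fold change of Acvrl1 was 0.69 and the adjusted p was 0.0126. Without GFAP-IL6 replicate 1 or 3 its call was lost, as it was under the endothelial scaling (log2 fold change 0.26), and without WT replicate 2, 3 genes of the list were called. Its ligand genes Gdf2 (BMP9) and Bmp10 were at 0 counts in all libraries.

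Among 13 tested Notch and tip cell genes, 3 were called higher and 0 lower, with a median log2 fold change of 0.05. Robo4, a guidance receptor of endothelial cells, was at 4.62 CPM in WT and 8.71 CPM in GFAP-IL6 libraries, a log2 fold change of 0.92 with an adjusted p of 0.00862. The receptor gene Notch4 had a log2 fold change of 0.83 (adjusted p 0.0129) and Notch1 one of 0.58 (adjusted p 0.0252). The call of Notch4 was lost without GFAP-IL6 replicate 2 or 3 and that of Notch1 without GFAP-IL6 replicate 1 or 3, so that 1 of these 3 genes was called without replicate 3. Without WT replicate 1, after thinning, or without the low-count filter, 1 gene of the list was also called lower. Robo4 was called in all 15 alternative fits. Under the endothelial scaling the log2 fold changes were 0.49 for Robo4, 0.40 for Notch4 and 0.14 for Notch1, whose call was lost. On that scale 7 genes of the list were called lower, where 64.5% of all genes tested were called lower. The Notch ligand gene Dll4, singled out after its values were seen, had a log2 fold change of 0.89 and an adjusted p of 0.12.

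Of 12 tested genes of signalling below VEGF receptors, 1 was called higher, Nos3, the endothelial nitric oxide synthase. Nos3 was at 8.41 ± 1.49 CPM in WT and 17.1 ± 2.98 CPM in GFAP-IL6 (SD, n = 3 each). It had a log2 fold change of 1.03 and an adjusted p of 0.00405 and was called in all 15 alternative fits, with a log2 fold change of 0.59 under the endothelial scaling, while 2 genes of the list were called without WT replicate 1. The median of that list was −0.01 on the log2 scale, and the widely expressed kinase genes in it were not called. Of 12 tested semaphorin and plexin partners of neuropilin, 1 was called higher, the vascular semaphorin gene Sema3g, with a log2 fold change of 0.75 and an adjusted p of 0.0328. This call was lost without WT replicate 3 or without any 1 of the GFAP-IL6 replicates, and 3 genes of the list were called without WT replicate 1. It was also lost with DESeq2 (adjusted p 0.0555), which called 0 genes of the list, after thinning (adjusted p 0.0606) and under the endothelial scaling (log2 fold change 0.32), and Sema3g was called in 8 of 15 alternative fits.

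Of 8 tested inhibitors of angiogenesis, 0 were called by edgeR, DESeq2 or limma-voom and 2 had an unadjusted p under 0.05 by edgeR. The most abundant was Sparc, a matrix protein gene, with a log2 fold change of 0.28 and an adjusted p of 0.122, which was −0.16 under the endothelial scaling. Of 15 tested hypoxia response genes, 1 was called higher and 0 lower, with a median of −0.01. The gene called was Slc2a1, which encodes the glucose transporter GLUT1 of the blood-brain barrier and of astrocytes, at 73.4 ± 1.43 CPM in WT and 119.5 ± 21.1 CPM in GFAP-IL6 (SD, n = 3 each). For Slc2a1 the log2 fold change was 0.70 with an adjusted p of 0.00331, and 3 genes of the list had an unadjusted p under 0.05 in each direction. The call of Slc2a1 was lost under the endothelial scaling, with a log2 fold change of 0.26 and an adjusted p of 0.0558. With DESeq2 or without WT replicate 3, 2 genes of the list were called higher, and without WT replicate 1, 1 was called higher and 1 lower.

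**Figure D4:**
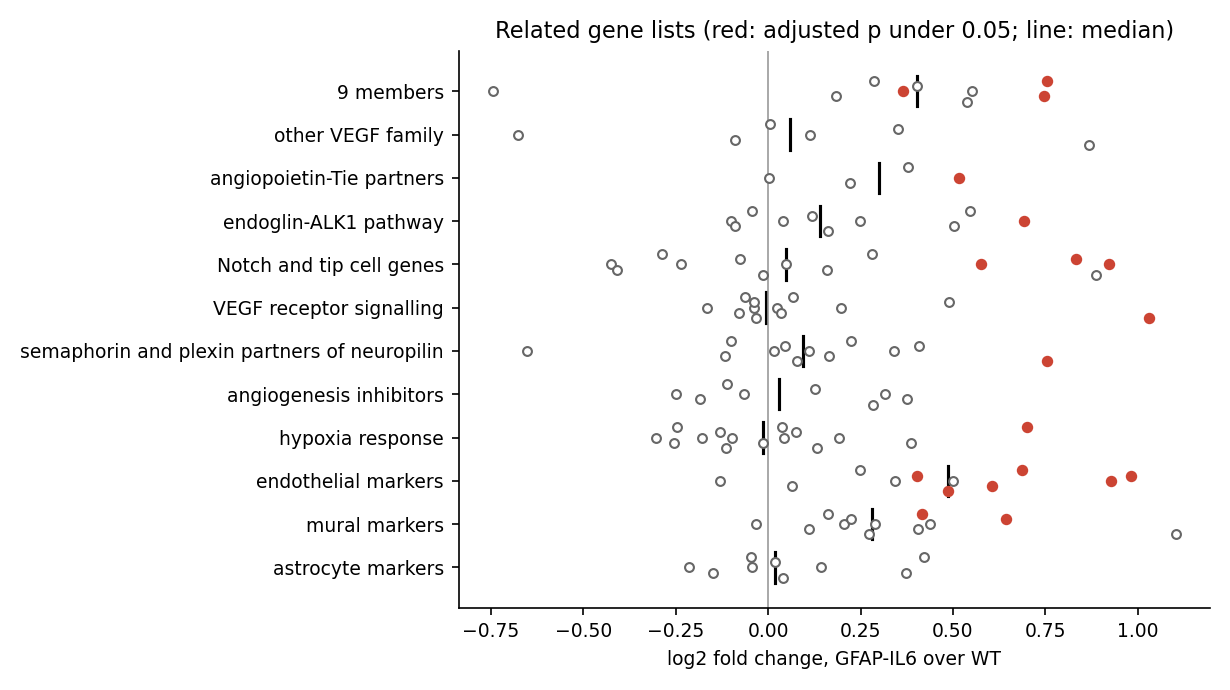
log2 fold change of GFAP-IL6 over WT for each tested gene of the 9 members, 8 pathway lists and the endothelial, mural and astrocyte markers, with genes at an adjusted p under 0.05 (TMM scaling) in red and a vertical line at the median of each list. The medians of the pathway lists lie between −0.01 and 0.30, that of the endothelial markers at 0.49, and the hypoxia list holds 1 red gene.

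The genes most like Vegfa and Kdr in pattern were found by the Pearson correlation of log2 CPM over the 6 libraries, given as a description with no test. For Vegfa they were Itpripl2 (0.998), H2-Ab1 (0.996), Acrbp (0.996), Ap4m1 (0.994) and Rinl (0.993). For Kdr they were Erap1 (0.997), Plekha7 (0.993), Csmd3 (0.989), Gm17193 (0.987) and RP23-441I24.5 (0.986). These were the highest coefficients among 15341 genes searched, members left out. Among the members, the correlation over the 6 libraries was 0.975 between Flt1 and Eng, 0.961 between Flt1 and Tie1 and 0.611 between Flt1 and Kdr, and it was −0.871 between Flt1 and Angpt2. These libraries fall into 2 groups that share the difference between genotypes, so the coefficients are not separate from the fold changes given above.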

How the data were processed

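TruSeq mRNA libraries from the frontal cortex of 6 mice were analysed, grouped by the titles of the samples. The authors aligned reads to mm10 with STAR (2.4) and counted reads per GENCODE gene with featureCounts, and deposited raw counts with a length in bases for each gene. The processing notes also list hg19, which does not match the mouse identifiers in the table. The strand setting is not given in the sources used here. Gene positions come from GENCODE M21 (GRCm38), which held 32593 of the 33000 identifiers, each on the same chromosome.

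Counts were tested with edgeR 4.0.16 in R 4.3.3 (quasi-likelihood F-test, TMM scaling, filterByExpr, group only, Benjamini-Hochberg adjustment over 15341 genes, threshold 0.05). CPM and TPM were computed from the counts, TPM with the deposited lengths. For correlations, log2 CPM used a prior count of 0.5, and the receptor and ligand means used no prior count. Standard errors derive from the F statistic. Totals ranged from 7559524 to 16877001 counts, and a floor of 3 counts covers counting error only. Alternatives used DESeq2 1.42.0, limma-voom (limma 3.58.1), other scalings, filters, thinning to 7559524 counts, a replicate block and each library left out. The edgeR, DESeq2 and voom fits were tested on simulated data. No pair of libraries had the same counts within sampling noise.

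The 9 members, the gene lists and the tests were chosen with earlier results of these data known. Named were all members, Il6 and Gfap, and of each pathway list the genes at an adjusted p under 0.05 (at most 4 in each direction) or, with none, the gene of highest mean TPM, as well as the 5 genes most correlated with Vegfa and with Kdr. Other named genes were chosen after their values were seen. Protein sequences were not used here.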

Additional observations from a re-analysis of the deposited data

How the results depend on the processing

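Of the 9 members, Flt1 passed the threshold in 15 of 15 alternatives, Eng in 12 and Vegfa in 10. Scaled to the endothelial markers, the log2 fold changes of Vegfa (−0.07), Angpt1 (−0.03), Kdr (−0.25), Nrp1 (−0.15) and Sparc (−0.16) changed sign, Eng (0.31) missed the threshold and Angpt2 (−1.17) passed it. By construction this scaling lowers the fold of all genes alike, and 10190 genes were then called, 9894 of them lower. Without a low-count filter 5 members were called, with Tek (0.53) and Tie1 (0.55) added. That fit called 1154 of 22621 genes tested, against 439 of 15341 in the main fit. With the replicate number as a block 5 members were also called, with Tek (0.53) and Tie1 (0.54) added, and the number of all genes called was 750 in place of 439. The numbers share no stated animal, litter or day, and the deviations of same-numbered libraries correlated at 0.093, 0.014 and 0.013. WT replicates 1 and 3 correlated best with the GFAP-IL6 library of their own number, and WT replicate 2 with GFAP-IL6 replicate 3. Over the 6 fits that left out 1 library, 1 to 4 members were called, and the log2 fold changes ranged from 0.31 to 0.42 for Vegfa, from 0.59 to 0.92 for Eng and from 0.48 to 0.63 for Tie1. All genes called numbered 1154 without the filter, 1061 without WT replicate 1, 282 without GFAP-IL6 replicate 2 and 187 without GFAP-IL6 replicate 3, against 439. The cause of these shifts was not tested. DESeq2 called 3 members and limma-voom 3. Angpt2 could not be tested after thinning, since it failed the filter, and the receptor minus ligand difference was then not computed. Depth limits Angpt2 most, with 7 or 8 counts in each GFAP-IL6 library.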
